A study of Homo sapiens with 12 samples.

Results

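The genes described here mark epithelial, mesenchymal and endometrial cell identity. There are 43 of them among the 60617 genes counted, taken by symbol from a list of keratins, epithelial surface and junction proteins, epithelial and Müllerian regulators, mesenchymal transcription factors, stromal surface proteins and uterine transcription factors. The mRNA came from 12Z, an endometriotic epithelial cell line of human origin that has been immortalized, and 12 libraries were sequenced in 4 groups of 3. Control cells carried pCAG empty vector and received vehicle, Insulin cells carried the empty vector and received 100 nM insulin, Viperin cells carried pCAG Viperin and received vehicle, and Viperin + Insulin cells carried pCAG Viperin and received 100 nM insulin. Every group was transfected, then deprived of serum before treatment, and its RNA was collected 24 h after insulin or vehicle. The groups are therefore transiently transfected populations of a single cell line, and the libraries of a group came from separate experiments according to the methods. Libraries held 25979022 to 46889002 read pairs assigned to genes on the reverse strand. RSAD2, which encodes Viperin, had 69 to 183 counts in the 6 empty-vector libraries and 10862 to 28665 in the 6 Viperin-plasmid libraries, so the plasmid labels match the counts. Control library 1 and Viperin library 3 had the largest shares of reads mapping to more than 1 place, at 13.9% and 12.1%, and results that rest on them are given with and without them.

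Epithelial cells form sheets joined by tight junctions and adherens junctions and hold a keratin cytoskeleton, which in simple epithelia is built of KRT8, KRT18, KRT19 and KRT7. Mesenchymal and stromal cells hold vimentin, which is not confined to them, and carry receptors such as PDGFRA and PDGFRB. In epithelial-mesenchymal transition (EMT), transcription factors of the SNAI, TWIST and ZEB families repress junction genes by binding E-boxes in their promoters, while GRHL2 and ESRP1 maintain the epithelial state. In the uterus, HOXA10 and HOXA11 pattern the Müllerian tract, HAND2 acts in the endometrial stroma, and PAX8 and SOX17 mark Müllerian epithelium.

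Transcript levels were compared between genes as TPM, which corrects for gene length and sets each library's total to the same sum. A gene is called expressed at or above 1 TPM in all 12 libraries. By this measure 33 of the 43 genes were expressed, and 24 of those were at or above 10 TPM in all 12 libraries. The genes expressed came from both the epithelial and the mesenchymal side, but more genes of the epithelial side fell short. The 10 genes below 1 TPM in at least 1 library were KRT5, KRT17, KRT81, EPCAM, CLDN4, CLDN7, SOX17, GRHL2, ESRP1 and ENG, of which all but ENG belong to the epithelial side. The list also holds more genes of that side. Those short of 1 TPM were 3 of 8 keratins, 1 of 4 epithelial surface proteins and 2 of 8 tight junction genes. They were also 3 of 5 epithelial and Müllerian regulators and 1 of 7 stromal surface genes.

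The cells held a simple-epithelial keratin set together with abundant vimentin. KRT18 lay between 921 and 1165 TPM (median 1079), KRT19 between 757 and 855 TPM (median 781) and KRT8 between 687 and 812 TPM (median 748). VIM, the intermediate filament protein of mesenchymal cells, lay between 1105 and 1298 TPM (median 1166). The ranges of VIM and KRT18 overlapped, as did those of KRT19 and KRT8. The order of VIM and the keratins turned when unstranded counts were used, with a lowest level of 418.5 TPM for VIM against 554.7 TPM for KRT18 and 796.5 TPM for KRT19. An antisense gene overlaps VIM, and KRT8 and KRT18 overlap on opposite strands. Reads opposite to KRT8 came to 27.0% of its own counts. Processed copies of these keratins also exist in the genome, and the 51 loci named as KRT8 pseudogenes held 719 to 1271 counts in a library, or 2.11% of KRT8 itself. KRT7 had a median of 36.5 TPM and KRT80, a type II keratin, 21.9 TPM. The remaining keratins were near or below 1 TPM. Medians were 1.07 TPM for the hair keratin KRT81, 0.85 TPM for the basal keratin KRT5 and 0.38 TPM for KRT17.

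Epithelial surface proteins did not share a single level. CD24, a glycosylated adhesion protein, had a median of 106 TPM, MSLN (mesothelin) 21.1 TPM and the mucin MUC1 12.1 TPM. EPCAM, the epithelial cell adhesion molecule, had 2 to 39 counts in a library and a median of 0.76 TPM. CDH1, which encodes E-cadherin and is not among the 43 genes, had a median of 0.78 TPM.

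Tight junction genes separated by member in the same way. CLDN11, a claudin best known from myelin and testis, was the most abundant of them at 359 to 474 TPM (median 400). CLDN1 had a median of 40.9 TPM, the scaffold protein TJP1 (ZO-1) 32.3 TPM and the junctional adhesion molecule F11R 27.0 TPM. Occludin, OCLN, lay at 4.23 TPM and CLDN3 at 2.20 TPM. CLDN4 had a median of 1.32 TPM and lay below 1 TPM only in the library that held its lowest level, 0.96 TPM, which was Control library 1. CLDN7 had 0 to 7 counts in a library and a median of 0.16 TPM.

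GRHL2, ESRP1 and SOX17 were at the bottom of the range. GRHL2 had 0 counts in all 12 libraries, where a count of 0 allows up to 3 counts, or 0.0640 to 0.115 CPM (counts in 1000000 assigned read pairs). ESRP1, an epithelial splicing regulator, had 0 to 4 counts and SOX17 also had 0 to 4 counts. PAX8 was expressed, at 6.78 to 8.99 TPM (median 7.64), with PAX8-AS1 read on the opposite strand at 72.4% of the counts of PAX8. WT1, a transcription factor of mesothelium and uterine stroma, had a median of 20.4 TPM.

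All 6 EMT transcription factors were expressed. Median levels were 27.8 TPM for TWIST1, 19.8 TPM for ZEB1, 16.8 TPM for SNAI2 (Slug), 8.26 TPM for ZEB2, 3.63 TPM for TWIST2 and 3.59 TPM for SNAI1 (Snail). ZEB1 and SNAI2 overlapped in their ranges over the 12 libraries, and so did TWIST2 and SNAI1. S100A4, a calcium-binding protein of motile mesenchymal cells, had a median of 26.4 TPM. On the surface, THY1 (CD90) led with 201 to 235 TPM (median 217). NT5E (CD73) followed at 56.0 TPM, PDGFRB at 34.1 TPM and cadherin-11, CDH11, at 31.2 TPM. PDGFRA had a median of 8.14 TPM, the fibroblast protease FAP 1.82 TPM and ENG (endoglin) 0.27 TPM. The 3 uterine transcription factors were all above 10 TPM in each library, with medians of 47.8 TPM for HAND2, 42.0 TPM for HOXA10 and 32.3 TPM for HOXA11. Genes on the same strand overlap S100A4 (S100A3), KRT7 (KRT86) and CLDN11 (SLC7A14-AS1), so reads there may be split or left unassigned. HOXA10 shares its strand with HOXA9 and is overlapped by HOXA10-AS, whose strand held 15.7% of the counts of HOXA10.

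**Figure D1:**
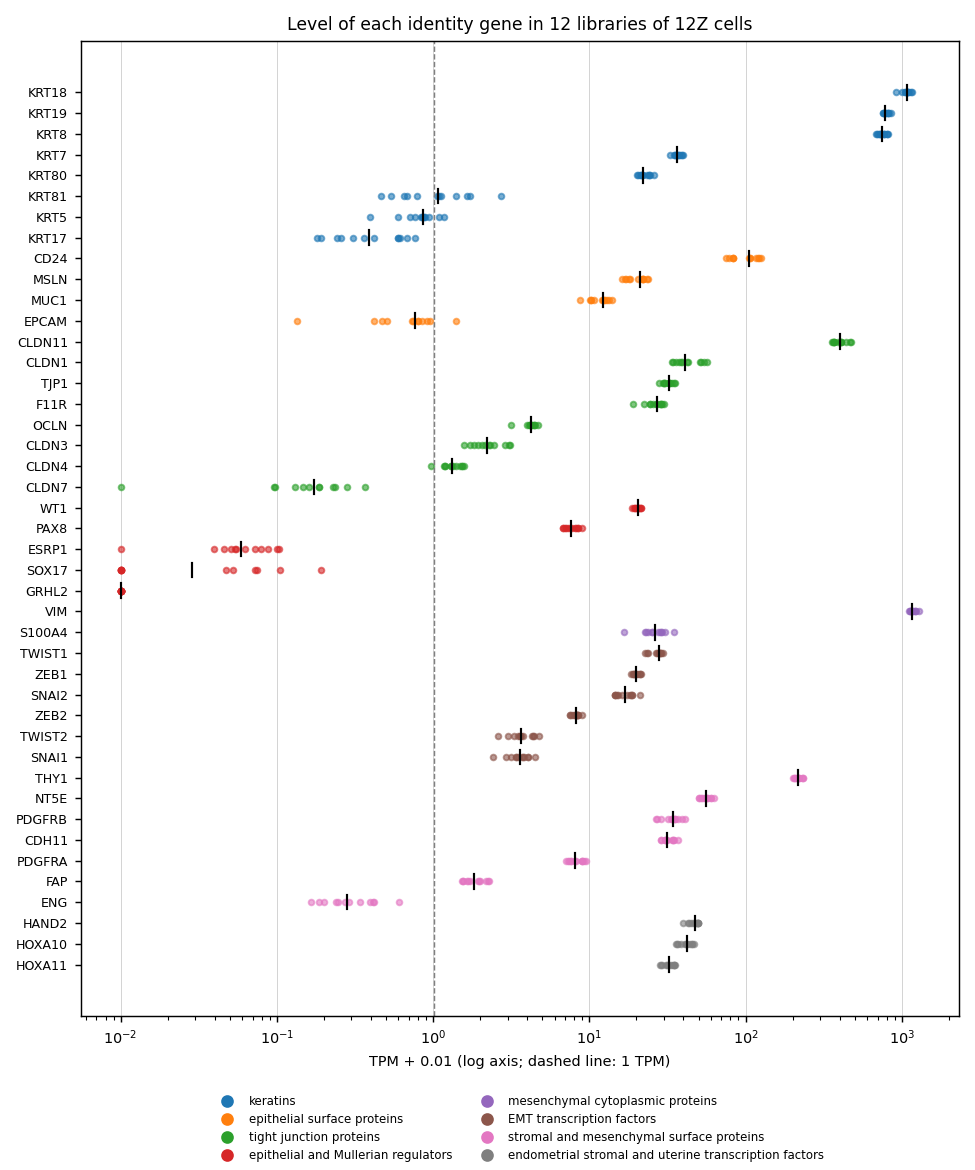
Level of each of the 43 genes in TPM (log axis, with 0.01 added so that zeros can be drawn), a point for each of the 12 libraries and a black bar for the median. Colours give the gene groups, and the dashed line stands at 1 TPM. KRT18 and VIM lie near 1000 TPM, and GRHL2 stands at 0 in all libraries.

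The labels give the cell type as epithelial, and this was compared with markers of other cell types. Of 9 epithelial markers 4 were expressed, KRT8, KRT18, KRT19 and KRT7, and GRHL2 was at 0 in every library. All 9 markers of endometrial stroma or fibroblasts were expressed, among them COL3A1 at a median of 958 TPM and LUM at 736 TPM. Of 6 mesothelial markers 5 were expressed, with PDPN highest at 95.9 TPM. Endothelial cells (1 of 5 expressed), leukocytes (1 of 6) and smooth muscle or pericytes (2 of 5) had few. The other 5 of that list, EPCAM, CDH1, GRHL2, ESRP1 and CLDN4, fell short of 1 TPM in at least 1 library. Some epithelial genes outside it were expressed, such as CD24, MUC1, CLDN1, TJP1 and F11R above. Of 48 further epithelial genes 18 were expressed. Among them MAL2 (median 255 TPM), AP1M2 (76.6 TPM) and LSR (50.5 TPM) were picked after their values were seen. In bulk RNA, fewer cells of a type and less RNA per cell cannot be told apart, so a mixture of cells and a single mixed state are not distinguished here.

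The bases before the start sites of these genes were searched for the E-box letters CACCTG and their reverse complement CAGGTG, the core to which the SNAI and ZEB factors bind. RefSeq gave 45 start sites for 25 of the 43 genes (GRCh38.p14), and 18 genes had no entry. The motif occurred on either strand in the 250 bases before a start in 11 of the 45 windows, or 24.4%, against 17.5% of all 35116 windows in the table. Windows are not independent: those of MUC1 overlap and hold the same 2 motifs, and each was counted. The motif was found before a start of 8 genes, namely S100A4, MUC1, OCLN, CD24, ZEB1, KRT5, TJP1 and CLDN7. Of the 4 genes below 1 TPM that had a window 2 held the motif, as did 6 of the other 21. CLDN7 and MUC1 were picked for display because a window of each held more than 1 motif and their transcript levels differ. CLDN7 had 0 to 7 counts and MUC1 190 to 339. ZEB1 also had a window with 2 motifs, and the other CLDN7 window, chr17:7263214-7263463, held 0. CLDN7 and MUC1 lie on the minus strand, and the motif is in capitals.
CLDN7, chr17:7262479-7262728, minus strand: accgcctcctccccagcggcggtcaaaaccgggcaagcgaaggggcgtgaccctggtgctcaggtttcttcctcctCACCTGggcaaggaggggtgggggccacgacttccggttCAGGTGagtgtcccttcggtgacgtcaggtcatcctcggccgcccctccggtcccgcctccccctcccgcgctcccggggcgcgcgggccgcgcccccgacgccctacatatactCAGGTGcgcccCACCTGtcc
MUC1, chr1:155192916-155193165, minus strand: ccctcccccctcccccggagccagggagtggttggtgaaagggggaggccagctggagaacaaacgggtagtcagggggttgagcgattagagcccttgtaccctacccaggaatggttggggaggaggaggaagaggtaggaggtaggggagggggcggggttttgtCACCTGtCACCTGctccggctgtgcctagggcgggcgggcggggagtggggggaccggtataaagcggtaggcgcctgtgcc
The CLDN7 window starts its 4 motifs 174, 135, 20 and 9 bases before the start site, and the MUC1 window its 2 motifs 82 and 75 bases before it. The CLDN7 window lies inside the longer gene model of GENCODE, which reaches base 7263983. A match describes letters and says nothing of binding in these cells.

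The study gave insulin to ask how it changes transcription in these cells and whether Viperin alters that response. Responses were fitted with edgeR over the 23041 genes whose counts averaged 1 or more, and a gene was called at an adjusted p under 0.05. Of the 43 genes 41 were tested, since GRHL2 and SOX17 fell below that mean. Values per library are given in CPM, which compares libraries for a gene but not genes with each other. Of the 41 genes 21 were called in at least 1 of 7 comparisons, and 20 in none. The share of all genes called in at least 1 was not computed, and the 7 comparisons use the same libraries. Shares of all genes are given below for each comparison. They include many genes with few counts, and no share among genes of like level was computed.

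Averaged over both plasmids, insulin moved members of several groups in both directions by modest amounts. Of the 41 genes 5 rose and 7 fell, against 5.76% of all tested genes that rose and 5.97% that fell. The genes that rose were KRT8, KRT81, CLDN11, S100A4 and SNAI2. Those that fell were KRT80, MUC1, CLDN1, PDGFRA, PDGFRB, HAND2 and HOXA10. The median log2 fold change of the 41 genes was -0.01, and that of all genes -0.0018. At an adjusted p under 0.001, PDGFRB, KRT80, SNAI2, KRT8 and KRT81 passed, where 3.92% of all genes did.

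PDGFRB, the receptor for PDGF-B on stromal cells and pericytes (chromosome 5, 150113839 to 150155872, minus strand, hg38), had the smallest adjusted p of the 41 genes. Control libraries held 63.3, 62.0 and 61.1 CPM and Insulin libraries 51.5, 49.0 and 49.4 CPM. Viperin libraries held 70.2, 64.9 and 70.8 CPM and Viperin + Insulin libraries 61.0, 61.0 and 57.5 CPM. Within each plasmid the insulin libraries all lay below the vehicle libraries. The averaged log2 fold change was -0.26 (SE 0.03, adjusted p = 3.36e-09), with -0.31 (SE 0.05, adjusted p = 1.11e-06) in empty-vector cells and -0.20 (SE 0.04, adjusted p = 0.00207) in Viperin cells. Its relative PDGFRA ran from 18.8 to 22.7 CPM with vehicle (median 21.3) and from 16.9 to 20.7 CPM with insulin (median 18.1). The 6 libraries of each kind overlapped, and the averaged log2 fold change of PDGFRA was -0.19 (SE 0.05, adjusted p = 0.00451). The other 5 stromal surface genes were not called for insulin. THY1, the most abundant of them, ran from 356 to 377 CPM with vehicle and from 363 to 391 CPM with insulin (log2 fold change 0.05, SE 0.02, adjusted p = 0.218).

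Of 8 keratins 2 were called higher with insulin and 1 lower, against 5.76% and 5.97% of all genes. KRT80 on chromosome 12 (52168996 to 52192014, minus strand, hg38) stood at 26.9, 26.5 and 25.8 CPM in Control and 23.6, 23.9 and 24.0 CPM in Insulin libraries. With the Viperin plasmid it stood at 26.8, 26.3 and 27.6 CPM with vehicle and 21.6, 22.2 and 21.4 CPM with insulin. All 6 insulin libraries lay below all 6 vehicle libraries. The averaged log2 fold change was -0.22 (SE 0.04, adjusted p = 4.34e-05). In Viperin cells the fall was called (log2 fold change -0.31, SE 0.06, adjusted p = 2.31e-04), and in empty-vector cells it was not (-0.14, SE 0.06, adjusted p = 0.161). The difference between those responses was -0.16 (SE 0.08, adjusted p = 0.884), so a difference between plasmids was not shown.

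KRT8, the partner of KRT18 in simple epithelia, moved the other way. Vehicle libraries ran from 1173 to 1331 CPM (median 1222) and insulin libraries from 1280 to 1429 CPM (median 1330), with overlap. Its averaged log2 fold change was 0.11 (SE 0.02, adjusted p = 6.83e-04). KRT18 was not called (log2 fold change 0.07, SE 0.03, adjusted p = 0.0599), nor was KRT19 (median 467 CPM with vehicle and 461 CPM with insulin). KRT81 rose by a larger factor from very low counts, 6 to 49 in a library. It lay between 0.212 and 0.505 CPM with vehicle and between 0.510 and 1.34 CPM with insulin, without overlap. The averaged log2 fold change of KRT81 was 1.03 (SE 0.23, adjusted p = 7.76e-04), and it overlaps KRT86 on the opposite strand. In empty-vector cells alone the rise was 1.40 (SE 0.33, adjusted p = 0.00303), and its adjusted p was 0.0962 without Insulin library 2, the highest.

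Among the 6 EMT transcription factors SNAI2 was the only one called over both plasmids. Its levels were 12.2, 12.9 and 13.1 CPM in Control and 15.2, 17.7 and 15.1 CPM in Insulin libraries. In Viperin libraries they were 13.3, 11.9 and 11.6 CPM, and in Viperin + Insulin libraries 14.7, 13.7 and 14.9 CPM. All 6 insulin libraries lay above all 6 vehicle libraries (log2 fold change 0.28, SE 0.06, adjusted p = 1.50e-04). In empty-vector cells the rise was 0.32 (SE 0.08, adjusted p = 0.00489), and without Insulin library 2, the highest, it was 0.24 with an adjusted p of 0.13.

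TWIST1, a basic helix-loop-helix factor, was called for insulin in empty-vector cells and not in Viperin cells or over both plasmids. It held 13.9, 14.4 and 14.9 CPM in Control and 11.8, 11.6 and 11.9 CPM in Insulin libraries, a log2 fold change of -0.30 (SE 0.08, adjusted p = 0.00880). With the Viperin plasmid it held 13.2, 14.0 and 13.5 CPM with vehicle and 13.8, 14.3 and 14.0 CPM with insulin, and the groups overlapped. The 3 Insulin libraries were thus the lowest of the 12. The difference of the insulin responses was 0.35 (SE 0.11), with an unadjusted p of 0.00181 and an adjusted p of 0.523. That difference did not pass over all genes, and the fall in empty-vector cells had an adjusted p of 0.0507 without Control library 3 and 0.0556 without Insulin library 2. ZEB1 (42.1 CPM at the insulin median, 44.3 CPM at the vehicle median), ZEB2 (51.9 and 54.6 CPM), SNAI1 (1.61 and 1.41 CPM) and TWIST2 (2.28 and 1.88 CPM) were not called.

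Surface and junction genes of the epithelial side fell or rose with insulin by member. CLDN1, which seals tight junctions, was at 47.4, 33.7 and 38.3 CPM in Control and 30.7, 31.8 and 34.5 CPM in Insulin libraries. It was at 51.1, 46.7 and 47.8 CPM in Viperin and 33.6, 37.4 and 37.3 CPM in Viperin + Insulin libraries. Control library 1 stood above the other Control libraries, and a Control library overlapped the Insulin group. The averaged log2 fold change of CLDN1 was -0.36 (SE 0.07, adjusted p = 0.00999). Without Control library 1 it was -0.29, with a smaller adjusted p of 9.35e-09. In Viperin cells the log2 fold change was -0.43 (SE 0.10, adjusted p = 0.0452). There the adjusted p was 5.33e-10 without Control library 1 and 1.98e-13 with a fit of only the groups compared, both with a log2 fold change of -0.43. The call in Viperin cells was lost without Control library 3, without Insulin library 1 or 2, and whichever library of the Viperin or Viperin + Insulin groups was left out, at adjusted p of 0.0624 to 0.122, and with a replicate block (0.0574), while the averaged call was kept. MUC1 ran from 6.37 to 8.52 CPM with vehicle (median 7.74) and from 5.20 to 7.20 CPM with insulin (median 6.24). The log2 fold change of MUC1 was -0.27 (SE 0.08, adjusted p = 0.00861), and -0.37 (SE 0.11, adjusted p = 0.0301) in empty-vector cells. The averaged call rested on Control library 3 (adjusted p = 0.0501 without it), and that in empty-vector cells was lost without Control library 1 (0.0741) or 3 (0.24) and without Insulin library 1 (0.177) or 3 (0.0565). The latter was also lost with DESeq2 (0.07), limma-voom (0.0594) and a fit of only the groups compared (0.0542). CLDN11 rose slightly, by 0.09 on the log2 scale (SE 0.03, adjusted p = 0.0104), a call lost without Insulin library 1 (0.0661), Viperin library 3 (0.0532) or Viperin + Insulin library 1 (0.0552). S100A4 on the mesenchymal side ran from 4.22 to 6.65 CPM with vehicle and from 6.13 to 7.91 CPM with insulin, a log2 fold change of 0.31 (SE 0.08, adjusted p = 0.00431).

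Of the 3 uterine transcription factors 2 were called lower with insulin, against 5.97% of all genes. HAND2 ran from 42.0 to 45.5 CPM with vehicle and from 36.8 to 43.1 CPM with insulin, and HOXA10 from 36.5 to 42.0 CPM and from 34.2 to 39.2 CPM. The log2 fold changes were -0.11 for HAND2 (SE 0.04, adjusted p = 0.0304) and -0.14 for HOXA10 (SE 0.04, adjusted p = 0.00405). Antisense genes overlap both, and with unstranded counts neither was called, with adjusted p of 0.0528 for HAND2 and 0.464 for HOXA10. Unstranded counts gave lowest levels of 26.92 TPM for HAND2 and 15.98 TPM for HOXA10. Reverse-strand counts gave 39.95 and 36.11 TPM, so the unstranded counts did not simply add reads to these genes. The HAND2 call was also lost without Control library 3 (0.0986), Insulin library 2 (0.121), Viperin library 1 (0.075), or Viperin + Insulin library 1 (0.0591) or 3 (0.078). HOXA11 was not called and had medians of 21.3 CPM with vehicle and 22.0 CPM with insulin.

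By plasmid, insulin against Control called 2 genes higher (KRT81 and SNAI2) and 4 lower (MUC1, TWIST1, PDGFRB and HAND2), against 2.53% and 2.96% of all genes. Without Insulin library 2 only MUC1 and PDGFRB were called there. HAND2 had a log2 fold change of -0.18 in that comparison (SE 0.05, adjusted p = 0.0223), and its adjusted p was 0.153 without Control library 3 and 0.188 without Insulin library 2. Viperin + Insulin against Viperin called 2 higher (KRT8 and CLDN11) and 3 lower (KRT80, CLDN1 and PDGFRB), against 2.17% and 2.39%. Leaving out a library moved the latter count of 5 to as few as 3 (without Viperin library 1 or Viperin + Insulin library 1 or 2) and to 8 (without Control library 1). KRT8 rose by 0.13 there (SE 0.03, adjusted p = 0.0126), a call lost without Viperin library 1 (0.0537) or 2 (0.103) or Viperin + Insulin library 1 (0.131) or 2 (0.0788). PDGFRB was the only gene called in both. None of the 41 genes was called for the difference of the insulin responses by edgeR, nor was any of the 23041 (0%). At an unadjusted p under 0.05 there were 3 of the 41 genes (TWIST1, CLDN11 and HOXA11) and 1296 of all genes, with 865 by DESeq2 and 1311 by limma-voom.

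**Figure D2:**
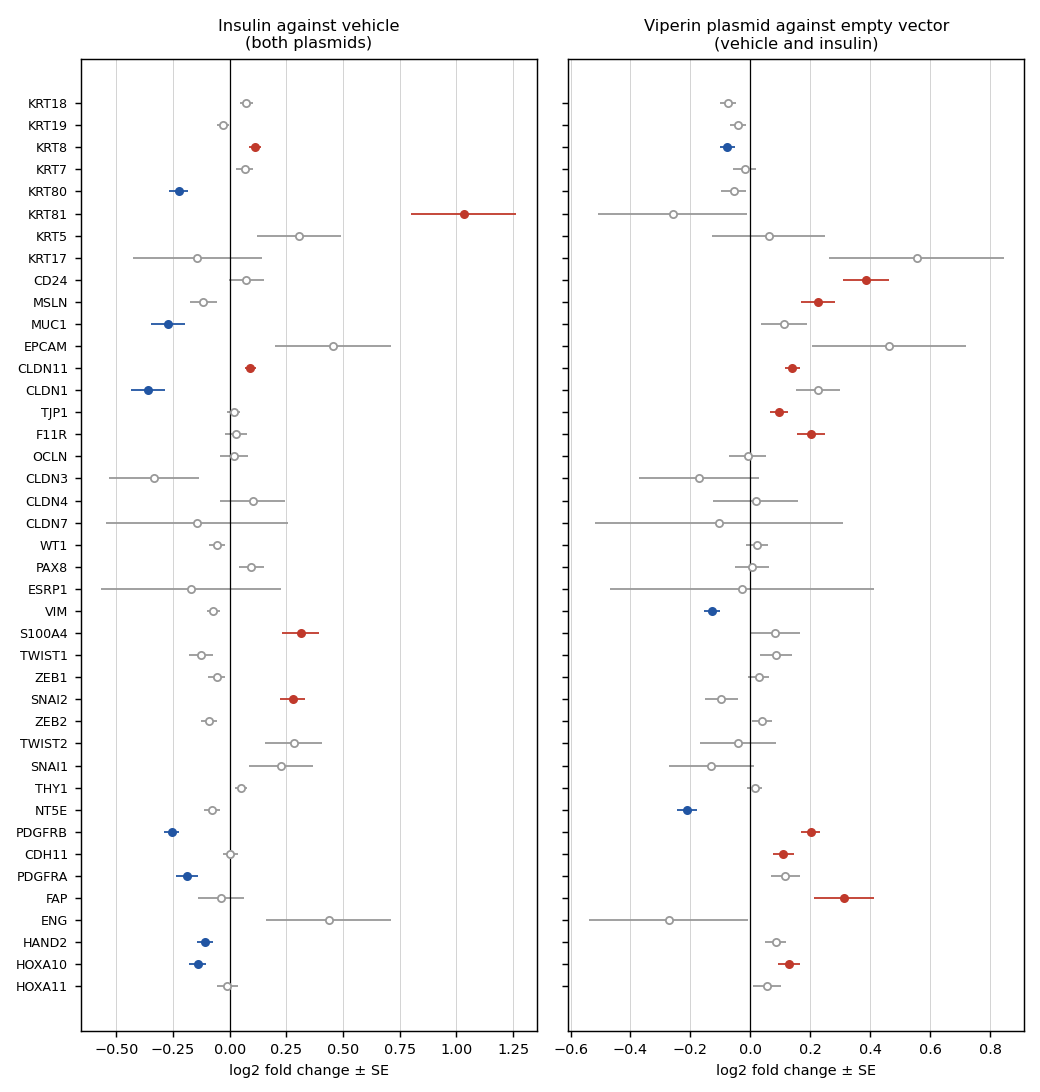
Log2 fold changes ± SE of the 41 tested genes for insulin against vehicle over both plasmids (left) and for the Viperin plasmid against empty vector over vehicle and insulin (right), from 6 against 6 libraries. Filled red points were higher and filled blue points lower at an adjusted p under 0.05, and open points were not called. PDGFRB falls with insulin (-0.26) and rises with the Viperin plasmid (0.20).

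Viperin, an interferon-induced radical SAM enzyme, was expressed from the plasmid to ask whether it alters transcription with and without insulin. Averaged over vehicle and insulin, 9 of the 41 genes were higher with the Viperin plasmid and 3 lower, against 4.47% and 3.49% of all genes. Higher were CD24, MSLN, CLDN11, TJP1, F11R, PDGFRB, FAP, CDH11 and HOXA10. Lower were KRT8, VIM and NT5E. The median log2 fold change was 0.03 over the 41 genes and 0.0012 over all genes. PDGFRB, NT5E and CLDN11 also passed at 0.001, as did 2.05% of all genes. Without Insulin library 3 the count of 12 fell to 7. KRT8, CLDN11, PDGFRB and HOXA10 were called for insulin too. The comparisons use the same 12 libraries.

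Stromal surface genes moved in both directions with the plasmid. PDGFRB, with the CPM values given above, was higher by 0.20 on the log2 scale (SE 0.03, adjusted p = 5.74e-06). Under insulin the rise was 0.26 (SE 0.05, adjusted p = 1.03e-04), and with vehicle it was 0.14 (SE 0.05, adjusted p = 0.0729). NT5E, the ectonucleotidase that makes adenosine from AMP (chromosome 6, 85449584 to 85495791, plus strand, hg38), went down. It held 65.0, 70.9 and 68.9 CPM in Control, 61.5, 72.9 and 69.0 CPM in Insulin, 63.2, 58.4 and 63.8 CPM in Viperin and 54.6, 54.8 and 58.2 CPM in Viperin + Insulin libraries. Under insulin the Viperin-plasmid libraries all lay below the empty-vector libraries. The averaged log2 fold change of NT5E was -0.21 (SE 0.03, adjusted p = 1.82e-05) and, under insulin, -0.28 (SE 0.05, adjusted p = 1.63e-04). FAP ran from 2.73 to 3.08 CPM in empty-vector and from 3.25 to 3.87 CPM in Viperin-plasmid libraries, without overlap (log2 fold change 0.31, SE 0.10, adjusted p = 0.0370). The FAP call was lost without Control library 2, Insulin library 2 or 3, Viperin library 2, or Viperin + Insulin library 1 or 3, at adjusted p of 0.0745 to 0.114. CDH11 was higher by 0.11 (SE 0.03, adjusted p = 0.0385). That call was lost without Control library 1 or 2, Insulin library 1 or 3, Viperin library 1 or 3, or Viperin + Insulin library 3, at adjusted p of 0.0531 to 0.122. DESeq2 and limma-voom called neither FAP (0.076 and 0.0516) nor CDH11 (0.0751 and 0.0522).

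Of 8 tight junction genes 3 were called higher and none lower, against 4.47% and 3.49% of all genes. CLDN11 held 404, 401 and 425 CPM in Control, 438, 409 and 406 CPM in Insulin, 443, 441 and 413 CPM in Viperin and 493, 461 and 491 CPM in Viperin + Insulin libraries. The Viperin + Insulin libraries were the 3 highest of the 12. Its log2 fold change was 0.14 averaged (SE 0.03, adjusted p = 8.93e-05), 0.20 under insulin (SE 0.04, adjusted p = 1.64e-04) and 0.08 with vehicle (SE 0.04, adjusted p = 0.339). The insulin response of CLDN11 was likewise called in Viperin cells (0.16, SE 0.04, adjusted p = 0.00395), and the difference of the insulin responses was 0.13 (SE 0.05, adjusted p = 0.737). The call in Viperin cells was lost without Viperin library 3 (0.063) or Viperin + Insulin library 1 (0.0817). F11R, a junctional adhesion molecule, held 34.8, 29.4 and 25.6 CPM in Control and 36.2, 36.8 and 35.4 CPM in Viperin libraries. It was the only one of the 41 genes called for Viperin against Control (log2 fold change 0.28, SE 0.07, adjusted p = 0.0172), where 1.25% of all genes were called higher and 1.04% lower. Its averaged rise was 0.20 (SE 0.05, adjusted p = 0.00342). TJP1 rose by 0.10 (SE 0.03, adjusted p = 0.0276), a call lost without Insulin library 2 or 3, Viperin library 2 or 3, or Viperin + Insulin library 2 or 3, at adjusted p of 0.0508 to 0.138, and with DESeq2 (0.0509).

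That count of 1 moved with the libraries used. Without Control library 1, 5 of the genes were called for Viperin against Control, namely CLDN1 (0.43), F11R (0.40) and PDGFRB (0.16) higher and VIM (-0.16) and NT5E (-0.18) lower on the log2 scale. Without Control library 1 and Viperin library 3 there were 4, the same genes except PDGFRB. F11R lost its call without Control library 2 or 3 (adjusted p of 0.0874 and 0.16) or without Viperin library 1 or 2 (0.0524 and 0.0921), and with a fit of only the groups compared (0.0537).

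Of the epithelial surface proteins CD24 and MSLN were higher with the plasmid. CD24 held 66.1, 66.4 and 65.1 CPM in Control and 81.4, 59.4 and 65.4 CPM in Insulin libraries. It held 82.6, 93.2 and 79.9 CPM in Viperin and 94.4, 89.7 and 87.7 CPM in Viperin + Insulin libraries. Only Insulin library 1 reached into the range of the Viperin-plasmid libraries, and the averaged log2 fold change was 0.39 (SE 0.08, adjusted p = 0.0169). MSLN ran from 10.8 to 14.6 CPM in empty-vector and from 12.8 to 14.8 CPM in Viperin-plasmid libraries (log2 fold change 0.23, SE 0.06, adjusted p = 0.00571). Under insulin MSLN was higher by 0.28 (SE 0.08, adjusted p = 0.0323), a call lost without Insulin library 1 or 2 or Viperin + Insulin library 1 or 2, at adjusted p of 0.0913 to 0.254, and with DESeq2 (0.0748).

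VIM and KRT8 were called lower, while the other 7 keratins were not called. VIM ran from 1485 to 1739 CPM in empty-vector libraries and from 1391 to 1552 CPM in Viperin-plasmid libraries, with overlap. The log2 fold change of VIM was -0.13 averaged (SE 0.03, adjusted p = 0.00120) and -0.15 under insulin (SE 0.04, adjusted p = 0.0151). With limma-voom neither passed (adjusted p of 0.0803 and 0.199), and the call under insulin was lost without Control library 3, Insulin library 2 or 3, or Viperin + Insulin library 1 or 3, at adjusted p of 0.0536 to 0.15, and with unstranded counts (0.0542). KRT8 was lower by 0.08 (log2 fold change -0.08, SE 0.02, adjusted p = 0.0395), a call lost without Control library 3, Insulin library 2 or 3, Viperin library 1 or 2, or Viperin + Insulin library 1, 2 or 3, at adjusted p of 0.0517 to 0.213. It was also lost with a replicate block (0.0558) and with edgeR without the robust option (0.0522). HOXA10 was higher by 0.13 (SE 0.04, adjusted p = 0.0152), a call lost with unstranded counts (0.0873) and without Control library 3 (0.0563) or Insulin library 3 (0.0503). Of the 6 EMT transcription factors none was called over both treatments. Under insulin TWIST1 was higher in Viperin-plasmid cells by 0.26 (SE 0.07, adjusted p = 0.0356), a call lost whichever library of either group was left out, at adjusted p of 0.0719 to 0.166, and with DESeq2 (0.0562), no filter on low counts (0.0558) and unstranded counts (0.0542). Viperin + Insulin against Insulin called 4 genes higher (PDGFRB, CLDN11, MSLN and TWIST1) and 2 lower (NT5E and VIM), against 2.09% and 0.994% of all genes. That count of 6 fell to 3 without Insulin library 2 or Viperin + Insulin library 1.

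**Figure D3:**
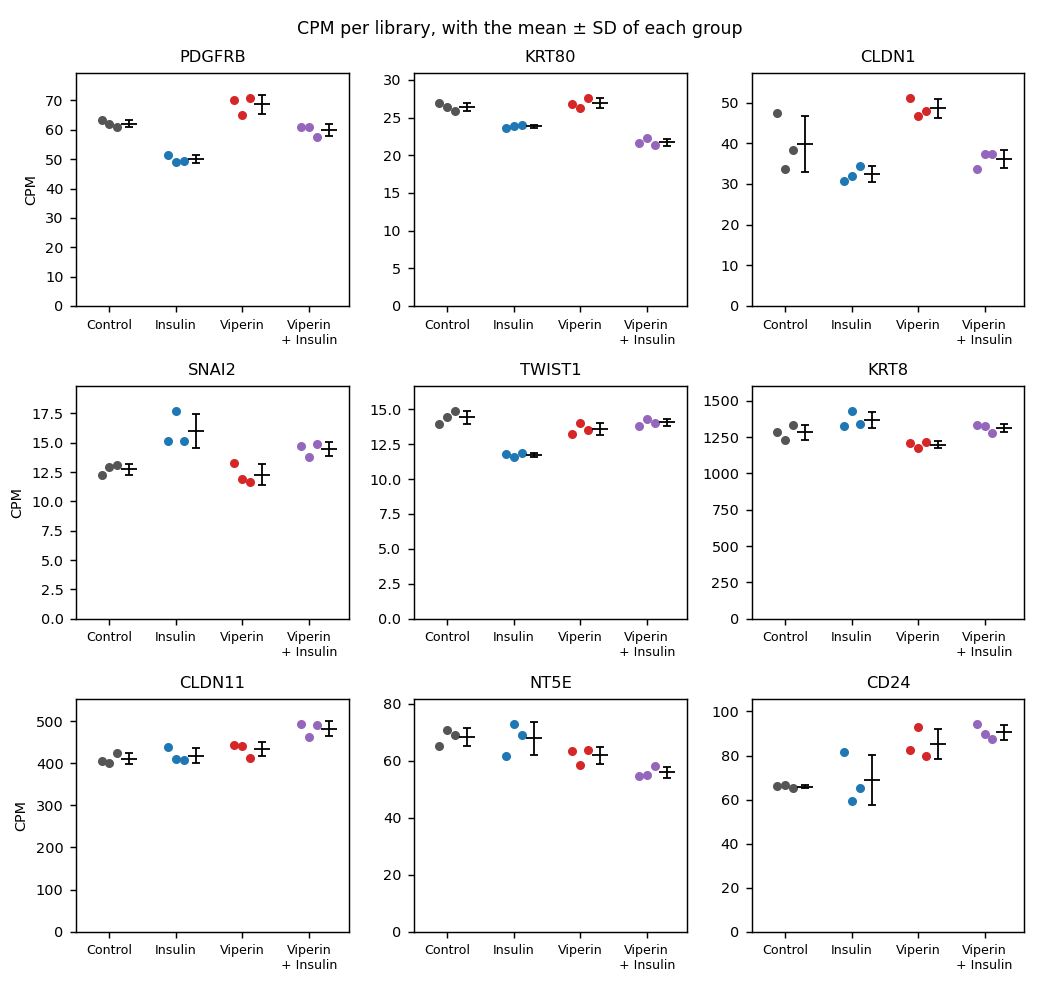
CPM of 9 genes in each library (coloured points, from left to right libraries 1 to 3 of each group), with the group mean and SD in black at the right of each group. Each axis starts at 0. PDGFRB is lowest in the Insulin libraries (49.0 to 51.5 CPM), as is TWIST1 (11.6 to 11.9 CPM), and CLDN11 is highest in the Viperin + Insulin libraries (461 to 493 CPM).

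Marker sums were set beside these results. The summed level of the 9 stromal or fibroblast markers was 2216 to 2726 TPM in Control and 2497 to 2511 TPM in Insulin libraries, and 3049 to 3107 TPM in Viperin and 3043 to 3187 TPM in Viperin + Insulin libraries. The 6 mesothelial markers, which include MSLN and WT1, summed to 191 to 213, 185 to 191, 223 to 231 and 208 to 219 TPM in the same order. The 9 epithelial markers summed to 2495 to 2618, 2698 to 2779, 2515 to 2648 and 2653 to 2810 TPM. Nearly all of that sum was KRT18, KRT19 and KRT8, with medians of 1079, 781 and 748 TPM. EPCAM, CDH1 and CLDN4 had medians of 0.76, 0.78 and 1.32 TPM. The stromal sum was thus higher in every Viperin-plasmid library than in every empty-vector library. COL3A1 and LUM, which are part of it, were more abundant than THY1 (median 217 TPM), HAND2 (47.8 TPM), PDGFRB (34.1 TPM) and PDGFRA (8.14 TPM). Among THY1, HAND2, PDGFRB and PDGFRA, only PDGFRB was called for the plasmid averaged over vehicle and insulin. The part of these sums in the results above was not tested.

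Other genes of the same kinds gave a wider view. Of 48 further epithelial genes 18 were expressed and 34 tested. With insulin none rose and 3 fell, EPS8L2 (log2 fold change -0.21), the desmosomal protein PERP (-0.13) and the polarity protein PATJ (-0.15), against 5.76% of all genes that rose and 5.97% that fell. With the Viperin plasmid 3 rose, LLGL2 (0.28), GRHL1 (0.47) and CLDN12 (0.11), and 3 fell, MAL2 (-0.14), which acts in apical transport, SFN (-0.25) and KRT15 (-0.44), against 4.47% and 3.49% of all genes. The median log2 fold change of the 34 was -0.07 for insulin and 0.03 for the plasmid.

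Of 45 further mesenchymal and EMT genes 39 were expressed and all were tested. With insulin 5 rose and 11 fell, against 5.76% and 5.97% of all genes. The hyaluronan receptor CD44 fell by 0.28 on the log2 scale (SE 0.03, adjusted p = 2.34e-12), DPP4 by 0.24 and the gelatinase MMP2 by 0.30, while the matrix protein SPARC rose by 0.29. With the Viperin plasmid 15 rose and 1 fell, against 4.47% and 3.49% of all genes. Those shares include genes with few counts, and this list was chosen with earlier results of these data known. The gene that fell was LGALS1, by 0.08. FBN1, a fibrillin of microfibrils, rose by 0.24 (SE 0.03, adjusted p = 1.47e-10), COL3A1 by 0.24, SPARC by 0.22 and MCAM by 0.19. The median log2 fold change of the 45 was -0.04 for insulin and 0.08 for the plasmid.

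Of 42 further uterine and endometrial genes 16 were expressed and 26 tested. The steroid receptors ESR1 and PGR had medians of 0.013 and 0.45 TPM, and the glandular factor FOXA2 had a median of 0 TPM. With insulin 4 fell and none rose, namely GATA6 (log2 fold change -0.14), HOXB6 (-0.19), SULF1 (-0.09) and BMP2 (-0.23), against 5.97% and 5.76% of all genes. With the Viperin plasmid SULF1 (0.14) and WNT5A (0.14) rose and none fell, against 4.47% and 3.49% of all genes. The 26 had a median log2 fold change of -0.02 for insulin and 0.07 for the plasmid. Of the 6 mesothelial markers LRRN4, CALB2 and PDPN fell with insulin, against 5.97% of all genes. PDPN and MSLN rose with the plasmid, against 4.47% of all genes. No endothelial, leukocyte, or smooth muscle or pericyte marker was called in either averaged comparison, with 5 of each tested and few expressed. Of all genes, 5.76% rose and 5.97% fell with insulin, and 4.47% rose and 3.49% fell with the plasmid.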

How the data were processed

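Read pairs were trimmed by the authors (cutadapt, Trim Galore) and both aligned to hg38 and counted for each gene by STAR. The deposited values are raw counts of read pairs, unstranded and for each strand, without normalization or filtering. Versions of those tools: not given in the sources used here. Reverse-strand counts were used, and lines that name no gene (9.44% to 13.9% multimapping) stayed out of library sizes. Names for 60357 of 60617 IDs came from GENCODE release 44. TPM used exon-union lengths of that release, and CPM used TMM factors. The methods name a mouse GENCODE release, so the gene models counted are unclear and may differ from those that gave the lengths.

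Genes averaging 1 count or more (23041) were fitted with edgeR 4.0.16 (R 4.3.3), robust quasi-likelihood, 4 group means, prior count 2. P-values are two-sided and Benjamini-Hochberg adjusted over all genes. SE is the fold change over the root of F. Alternatives were RLE factors, DESeq2 1.42.0, limma-voom 3.58.1, other filters, unstranded counts, RSAD2 and mitochondrial genes out of the library sizes, a replicate block, only the groups compared, and each library left out. Another 2 were added after seeing the data: edgeR without the robust option, and Control 1 with Viperin 3 left out.

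The genes and lists were chosen with earlier results of these data known. Every one of the 43 genes is named with its level, with fuller values for those called and the most abundant. Further lists give counts and up to 4 genes with the smallest p. The levels of MAL2, AP1M2, LSR, COL3A1, LUM, CDH1, ESR1, PGR and FOXA2, and SFN, KRT15 and LGALS1, were chosen after their values were seen. Python 3.11.15, pandas 2.3.3 and matplotlib 3.10.9 made the figures.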

Additional observations from a re-analysis of the deposited data

Results flagged for a closer look

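Reads on the strand opposite to a gene were not used in the comparisons. Opposite to CLDN11 they were 2.53-fold higher in Viperin + Insulin than in Control libraries, with means of 0.522 and 0.206 CPM that rest on 3 to 28 counts in a library. Opposite to PAX8, where PAX8-AS1 is annotated, they were 1.36-fold higher, with means of 11.5 and 8.47 CPM and 250 to 531 counts. Neither difference was tested.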

How the results depend on the processing

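Of 42 calls of a gene in a comparison, 20 held under every alternative run, 22 were lost under at least 1, and none reversed. Requiring an adjusted p under 0.001 left 5 of 12 genes for insulin averaged, 3 of 12 for Viperin averaged, 1 of 6 for Insulin against Control, 1 of 5 for Viperin + Insulin against Viperin, 0 of 1 for Viperin against Control and 3 of 6 for Viperin + Insulin against Insulin. Fitting only the groups compared gave 10 genes for Viperin + Insulin against Viperin, 10 for Viperin + Insulin against Insulin and 4 for Insulin against Control, where MUC1 (adjusted p = 0.0542) and HAND2 (0.0604) were lost. For Viperin against Control, DESeq2 and no filter on low counts each gave 2 genes, edgeR without the robust option 3, and leaving out Control 1 and Viperin 3 together 4. Leaving out each library in turn gave 10 to 14 genes for insulin averaged, 7 (without Insulin library 3) to 13 for Viperin averaged, 2 (without Insulin library 2) to 8 for Insulin against Control, 3 (without Viperin library 1 or Viperin + Insulin library 1 or 2) to 8 (without Control library 1) for Viperin + Insulin against Viperin, 0 (without Control library 2 or 3 or Viperin library 1) to 5 (without Control library 1) for Viperin against Control, and 3 (without Insulin library 2 or Viperin + Insulin library 1) to 8 for Viperin + Insulin against Insulin. The causes were not tested. The count of expressed genes was 33 or 34 throughout. The labels do not state whether the replicate numbers pair the libraries. None of 18 same-number correlations passed 0.1 (-0.06 to 0.06), and 3 of 12 libraries correlated best with their own number. No signal shared by replicate number was seen, which does not settle whether same-numbered libraries came from the same experiment. With a replicate block the count was 12 for insulin averaged, 11 for Viperin averaged, 6 for Insulin against Control, 5 for Viperin + Insulin against Viperin, 1 for Viperin against Control and 6 for Viperin + Insulin against Insulin. Genes with few counts, such as KRT81, EPCAM, CLDN7 and ENG, are limited by depth.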
